A study of Homo sapiens with 9 samples.

Results

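CCK, DNER, CLCA2 and FEZ2 are 4 of the 16630 genes measured here by RNA sequencing of H1650, a long-established human line of non-small cell lung cancer cells. They were chosen by their own levels in these libraries, being about 2-fold or more lower when ENAH was silenced with a pool of siRNAs against all of its transcripts, and were taken by name from the expression table. ENAH encodes hMENA, a protein of the Ena/VASP family that promotes the growth of actin filaments. Each library came from cells collected on day 3 after transfection with siRNA at 20 nM, in 3 groups of 3 libraries. The control group received a nontargeting pool, the siMENA group the pool against all ENAH transcripts, and the siMENA11a group a mix of 3 siRNAs against exon 11a, the exon of the epithelial isoform hMENA11a. All groups share the cell line and the lipid transfection, and none was left untransfected. The submitters describe the 3 libraries of a group as biological replicates, without saying how the cultures were separated, so p-values measure the spread between these libraries.

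An siRNA guides the Argonaute protein to a messenger RNA that it matches along its whole length, and that RNA is cut. The bases near the 5′ end of the guide, called the seed, can also pair with short sites in the 3′ untranslated region (3′ UTR) of other messenger RNAs and lower their level, as a microRNA does. The 4 genes were proposed as candidates for such seed pairing. They have no common pathway. CCK encodes cholecystokinin, a peptide hormone of gut and brain that is cut from a longer precursor. DNER encodes a membrane protein with EGF-like repeats that is known in neurons as a ligand of Notch. CLCA2 encodes a protein of the calcium-activated chloride channel regulator family that is made by stratified and basal epithelium and induced by p53. FEZ2 encodes a zygin, a relative of FEZ1, which links cargo to the motor kinesin-1 and takes part in the control of autophagy.

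In GRCh38, CCK lies at chr3:42257825-42266207 on the minus strand, DNER at chr2:229357629-229714558 on the minus strand, CLCA2 at chr1:86424086-86456558 on the plus strand and FEZ2 at chr2:36531805-36646087 on the minus strand. All 4 are annotated as protein-coding. ENAH lies at chr1:225486835-225653142 on the minus strand. The sources used here do not give the siRNA sequences, so none could be aligned to these genes. Instead, annotated transcripts were searched on the strand of the messenger RNA for the 7-base words CAGAATA and AGAATAA, which overlap by 6 bases and together form the 8-base run CAGAATAA. These words had been singled out earlier from the siMENA and control libraries themselves, so their presence in genes that fell is a description and supports nothing. The matches are shown because they differ among the 4 genes. Each line gives 30 bases from 5′ to 3′ with the match in capitals.
CCK, 3′ UTR, chr3:42258026-42258055: cccagaggaggCAGAATAAgaaaacaatca
DNER, 3′ UTR, chr2:229358222-229358251: tgtggttgttaCAGAATAAgtctaatcaag
FEZ2, 3′ UTR, chr2:36552674-36552703: agagattgaaaCAGAATAAacgggctgttc
FEZ2, 3′ UTR, chr2:36552640-36552669: agaagcaaaacCAGAATAtgcattactttg
CLCA2, coding sequence, chr1:86455109-86455138: gtaaaagtctaCAGAATAtccaagatgact
ENAH, coding sequence, with the word at chr1:225519208-225519214: gagagagagcgCAGAATAtcaagtgctgct
ENAH, 3′ UTR, chr1:225488083-225488112: ggggttggggtCAGAATAAgcatgtgcatg

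CCK, DNER and FEZ2 each held the 8-base run once in the 3′ UTR, whereas the 3′ UTR of CLCA2 held neither the words nor their shared 6-base core AGAATA. Among 14750 genes of the table whose longest annotated 3′ UTR could be searched, 5.99% held the 8-base run, 26.1% held at least 1 of the words and 38.9% held the core. In CCK the run began at base 54 of a 3′ UTR of 273 bases, in DNER at base 300 of 911 and in FEZ2 at base 471 of 905. FEZ2 held a second word at base 505. The word was in every annotated coding transcript of CCK (3 searched) and FEZ2 (4 searched) that has a stop codon. DNER also carried CAGAATA once in its coding sequence, and CLCA2 carried it only there. ENAH, the intended target, held CAGAATA once in its coding sequence and the words at 2 places of its 10940-base 3′ UTR.

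**Figure D1:**
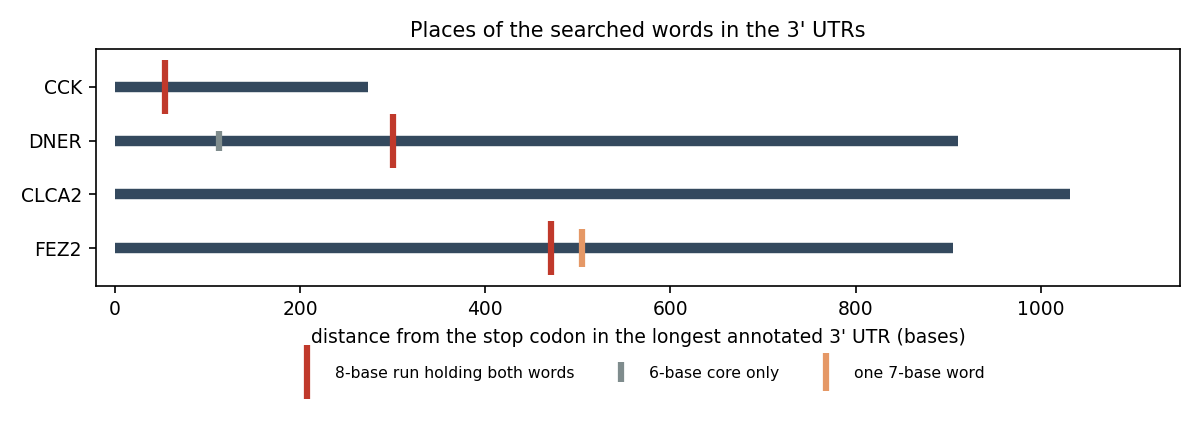
Places of the searched words in the longest annotated 3′ UTR of the 4 genes, in bases from the stop codon. Dark bars are the 3′ UTRs, and tall red ticks mark the 8-base run, orange ticks a single 7-base word and short grey ticks the 6-base core alone; the bar of CLCA2, 1031 bases long, carries no tick.

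In length and base composition the 3′ UTR of CCK stood apart from the other 3, being shorter and less rich in A and U. The 3′ UTRs measured 273 bases in CCK, 911 in DNER, 1031 in CLCA2 and 905 in FEZ2, against a median of 1305 over the genes searched. A and U made up 59.0% of the 3′ UTR of CCK, 67.4% of that of DNER, 67.8% of that of CLCA2 and 65.3% of that of FEZ2, against a median of 57.1%. The longest run of bases that the longest-3′-UTR transcript of a gene shared with any ENAH transcript was 12 bases for CCK, 14 for DNER, 15 for CLCA2 and 13 for FEZ2. The median over genes was 14 bases, and 26.6% of genes shared 19 or more, a length near that of an siRNA. None of the 4 genes was among those 26.6%. Only exact runs were searched and the siRNA sequences were not available, so matches of the siRNAs themselves to these genes were not tested.

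ENAH was lower in both siRNA groups, which checks the control label against the siRNA labels. It does not check which siRNA group is which, since both target ENAH and no values of single isoforms were used. Its mean was 27.4 ± 2.3 FPKM (fragments scaled to transcript length and library size, mean ± SD, n = 3) in the control group, 5.26 ± 0.73 in the siMENA group and 10.4 ± 0.5 in the siMENA11a group (limma adjusted p 6.41e-06 and 6.29e-05). The control and siMENA values of the 4 genes, given next, are those that chose them, so no test is attached to that difference.

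CCK measured 8.61, 11.96 and 10.1 FPKM in control replicates 1 to 3 and 1.30, 4.31 and 2.81 FPKM in siMENA replicates 1 to 3. Every siMENA library was below every control library, with means of 10.2 ± 1.7 and 2.80 ± 1.51 FPKM, a 3.64-fold lower level. Under siMENA11a CCK measured 14.8, 17.4 and 11.6 FPKM, and the lowest of these lay below the highest control library. CCK had the widest spread of the 4 genes under siMENA, with an SD of 53.7% of the mean.

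DNER measured 16.2, 18.9 and 18.4 FPKM in the control libraries and 4.63, 6.40 and 7.05 FPKM in the siMENA libraries. Its mean was 2.96-fold lower under siMENA, and the groups did not overlap. The siMENA11a libraries held 17.3, 21.2 and 16.6 FPKM, within and just above the control range.

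CLCA2, with the highest level of the 4, measured 107.9, 93.8 and 101.6 FPKM in the control libraries and 38.8, 49.2 and 53.1 FPKM in the siMENA libraries. The values of control replicates 1 and 3 were deposited as whole numbers and are given here after division by 1000. The mean was 2.15-fold lower under siMENA without overlap between the groups. Under siMENA11a it measured 93.2, 76.4 and 100.6 FPKM, of which replicates 1 and 2 lay below the lowest control library and replicate 3 within the control range.

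FEZ2 measured 23.7, 23.7 and 24.2 FPKM in the control libraries, the narrowest spread of the 4 genes, and 9.83, 10.3 and 11.9 FPKM in the siMENA libraries. Its mean was 2.24-fold lower under siMENA. The siMENA11a libraries held 31.1, 29.7 and 32.2 FPKM, all above every control library; the first of these is also a whole number divided by 1000.

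**Figure D2:**
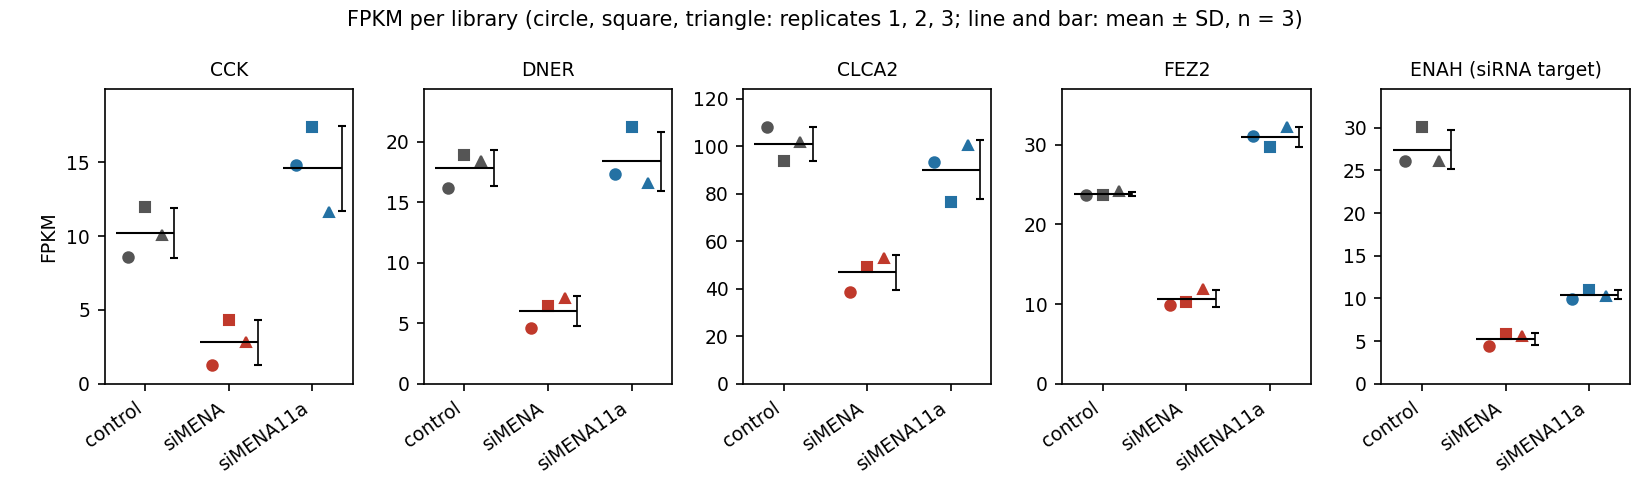
FPKM of CCK, DNER, CLCA2, FEZ2 and the siRNA target ENAH in each library, on a separate axis from 0 for each gene; circles, squares and triangles are replicates 1, 2 and 3, and the line and bar are the mean ± SD of 3 libraries. The 4 genes had their lowest values in the siMENA group, whereas ENAH was low in both siRNA groups, at 19.2% and 38.1% of the control mean.

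On the log2(FPKM + 1) scale, which understates changes of low genes, the siMENA minus control difference was -1.63 (SE 0.26) for CCK, -1.44 (SE 0.13) for DNER, -1.10 (SE 0.12) for CLCA2 and -1.09 (SE 0.07) for FEZ2. The median over the 13273 genes tested was 0.04. All 4 genes passed the filter on low values, a mean of at least 0.5 FPKM. Of the genes tested, 83 (0.625%) had a mean at least 2-fold lower under siMENA, 16.3% had every siMENA library below every control library and 0.52% met both conditions, as the 4 genes did by choice. By that ratio of means CCK came 8th, DNER 12th, FEZ2 38th and CLCA2 55th, so the 4 are among the largest falls and are not the 4 largest. Just inside the 2-fold limit lay DCTN6, from 31.2 to 15.5 FPKM, and SPINK8, from 0.97 to 0.48 FPKM. Just outside lay RNASE4, from 2.71 to 1.36 FPKM, and ARF4, from 163.2 to 81.9 FPKM.

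The 4 genes and ENAH all had their lowest value in siMENA replicate 1, at 12.7% of the control mean for CCK, 25.9% for DNER, 38.4% for CLCA2, 41.2% for FEZ2 and 16.2% for ENAH. Replicate 1 was the lowest of the 3 siMENA libraries for 33.6% of all genes tested, and for 42 of the 69 genes (60.9%) that were at least 2-fold lower under siMENA without overlap. Its part in the result was not tested. Without that library the difference was -1.31 for CCK, -1.29 for DNER, -0.97 for CLCA2 and -1.04 for FEZ2.

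The siMENA11a group tells whether the 4 genes also moved when ENAH was lowered with other siRNAs, which are against exon 11a and not against all transcripts. This comparison was not used to pick them, but it shares the control libraries with the one that was. FEZ2 rose by a log2 difference of 0.36 (95% interval 0.21 to 0.51, adjusted p 0.00581 with limma and Benjamini-Hochberg adjustment), from 23.9 ± 0.3 to 31.0 ± 1.3 FPKM. The other 3 did not pass. CCK differed by 0.47 (interval -0.11 to 1.05, adjusted p 0.239), DNER by 0.03 (-0.26 to 0.33, adjusted p 0.886) and CLCA2 by -0.17 (-0.45 to 0.11, adjusted p 0.372), also with limma. The lowest bound among these intervals is the -0.45 of CLCA2. Among all genes tested 8.16% were called higher and 11.3% lower in this comparison, so 1 of 4 called is close to the background. All siMENA11a libraries lay above all control libraries for FEZ2, as for 16.6% of genes tested, and the groups were apart in either direction for 36.7%. Permuting the FPKM values between the groups in every possible way (exact test, two-sided) gave p = 0.1 for FEZ2, the smallest that 3 against 3 libraries allow, 0.2 for CCK and CLCA2 and 0.8 for DNER.

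Set beside each other, the siRNA groups differed by 2.10 (SE 0.26) for CCK, 1.47 (SE 0.13) for DNER, 0.93 (SE 0.12) for CLCA2 and 1.46 (SE 0.07) for FEZ2, each higher under siMENA11a. The siMENA libraries chose the genes, so this is a description without a test; among all genes tested 36.6% were called in this comparison, 14.4% higher and 22.2% lower under siMENA11a. ENAH was also higher under siMENA11a than under siMENA, by 0.87 (SE 0.09, adjusted p 0.000112 with limma). The groups therefore differ in the siRNAs, in the ENAH transcripts these target and in how far ENAH fell. The contribution of each cannot be told apart in this design.

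**Figure D3:**
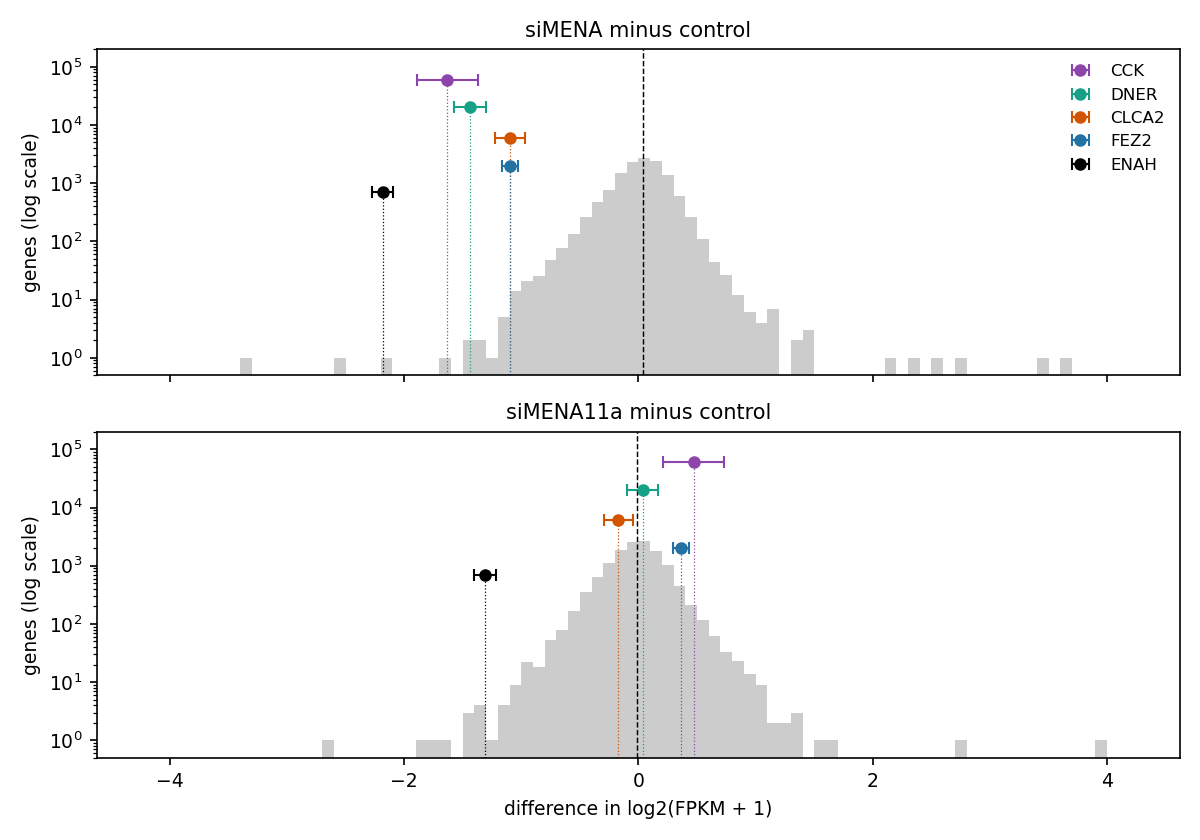
Differences in log2(FPKM + 1) of all 13273 genes tested (grey histogram, number of genes on a log axis) for siMENA minus control and siMENA11a minus control, with the 4 genes and ENAH as points with SE bars. The height of the points has no meaning and dashed lines are the medians; the 4 genes lie at -1.09 or lower under siMENA and between -0.17 and 0.47 under siMENA11a, where ENAH stays at -1.31.

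Genes with the words gave the following values over the whole table. The 751 genes tested whose 3′ UTR held the 8-base run had a median difference of -0.11 in siMENA minus control, the comparison on which the words were picked, and 66.2% of them were below 0. The 8921 tested genes without a word had a median of 0.06, with 37.0% below 0. In siMENA11a minus control the medians were 0.01 with the run and -0.02 without a word. At least 2-fold lower under siMENA without overlap were 62 searched genes other than ENAH. Of these, 25 (40.3%) held a word and 15 (24.2%) held the run. CLCA2 was among the majority without a word. Of all genes tested and searched, 26.8% held a word and 6.16% the run. The words were picked on this same comparison, so these counts are in part built in and support nothing.

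The genes most alike in pattern were found by Pearson correlation of log2(FPKM + 1) over the 9 libraries among genes averaging 1 FPKM or more. Since the siMENA libraries dominate such a pattern, likeness to a gene chosen for its fall was in part built in. CCK was closest to SLC2A10, a glucose transporter (r = 0.988), SLC4A2, an anion exchanger (0.983), and LPCAT2, an enzyme of phospholipid remodelling (0.982). DNER was closest to ARFGEF2, an exchange factor of ARF GTPases (0.993), NDFIP1, an adaptor of NEDD4 ubiquitin ligases (0.989), and ITGAV, the integrin alpha V subunit (0.988). CLCA2 was closest to S100A8, a subunit of calprotectin (0.991), ITGB8, the integrin beta 8 subunit (0.990), and TM7SF3 (0.989). FEZ2 was closest to FAM96A, a factor of iron-sulfur protein assembly (0.997), SCP2, a lipid carrier (0.997), and EPS15, an endocytic adaptor (0.997). Like FEZ2, FAM96A and SCP2 were also higher under siMENA11a than in the control group, with differences of 0.30 and 0.29, and EPS15 differed by 0.14. The siMENA11a and control libraries are among the 9 that set the likeness. This resemblance was therefore also in part built in, and no test is attached to it. Of these 12 genes 7 held a word in the 3′ UTR and 3 the 8-base run, against 26.1% and 5.99% of all genes searched. The words were picked on the same siMENA libraries that set the likeness, so these counts too are in part built in and support nothing.

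Deviations of each library from its group mean split the 4 genes into pairs. CCK and DNER deviated together (r = 0.826 over 9 libraries), as did CLCA2 and FEZ2 (0.798), whereas the other 4 pairings ranged from 0.137 to 0.419. ENAH deviated with CCK (0.882) and DNER (0.838) more closely than with FEZ2 (0.314) or CLCA2 (0.219). These values describe 9 libraries that share their scaling and replicate numbers. CCK and ENAH were highest in replicate 2 of every group. Over all genes tested, deviations of replicate 2 correlated between groups at 0.378, 0.425 and 0.309. The range was 0.0863 to 0.206 for replicate 1 and -0.0302 to 0.196 for replicate 3. Libraries of unlike replicate numbers ranged from -0.425 to 0.321. How often other genes deviate as closely as these pairs was not tested.

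The pathways in which the 4 genes are known were then described with lists that leave the 4 genes out. In siMENA minus control 10.3% of genes tested were called higher and 8.24% lower, with 44.4% of all calls lower. After median-ratio scaling of the libraries 56.2% of calls were lower. In siMENA11a minus control 8.16% of genes tested were called higher and 11.3% lower.

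Of 33 tested genes of Notch receptors, ligands, processing and targets, 3 rose and 5 fell under siMENA (median 0.08, against 0.04 over all genes). NUMB, an inhibitor of Notch, fell from 16.9 ± 1.1 to 11.6 ± 0.9 FPKM (log2 difference -0.51, limma adjusted p 0.00776). HES5, a target gene of Notch, fell from 1.58 ± 0.26 to 0.73 ± 0.35 FPKM and NUMBL, a relative of NUMB, rose from 4.06 ± 0.60 to 5.88 ± 0.50 FPKM (limma adjusted p 0.0274 and 0.0256). Both of these calls ended when any of control replicates 1 and 3 or siMENA replicates 1 and 2 was left out, and that of HES5 also without control replicate 2 (largest adjusted p 0.0944 and 0.0967). Over the list, 3 genes were called without any one of the control replicates, and 4 without siMENA replicate 1 or 2. The receptor NOTCH1 and the ligand JAG1 did not pass, at 0.15 and -0.24, and the ligand DLL1 was below the filter at 0.17 FPKM in the control group. Under siMENA11a 2 of the 33 rose and 3 fell. RBPJ, the DNA-binding partner of the Notch intracellular domain, fell by 0.53, and LFNG, which adds sugars to Notch, by 0.38, while ITCH, a ubiquitin ligase of Notch, rose by 0.22 (limma adjusted p 0.00136, 0.00888 and 0.0104). Without any one of the control replicates, siMENA replicate 2 or siMENA11a replicate 1, 3 genes of the list were called.

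The receptors CCKAR and CCKBR and the related hormone gene GAST were not analysed here. Of 15 tested genes of peptide hormone processing, 1 rose and 0 fell under siMENA with limma. The gene that rose was TPP2, a peptidase that can degrade cholecystokinin, by 0.24 (adjusted p 0.0145), and this call ended without control replicate 1 or siMENA replicate 2 (adjusted p up to 0.0527). With the replicate number as a block 3 genes of the list were called. Under siMENA11a 4 of 15 rose and 0 fell. PCSK5, a proprotein convertase, rose from 10.9 ± 0.6 to 14.9 ± 0.4 FPKM and PCSK1N, an inhibitor of the convertase PCSK1, from 48.0 ± 5.0 to 63.7 ± 4.4 FPKM (limma adjusted p 0.00146 and 0.00939). CADPS2, which primes secretory vesicles, rose by 0.31 (limma adjusted p 0.0374), though not when control replicate 2 or 3, siMENA replicate 2 or siMENA11a replicate 1 or 3 was left out (largest adjusted p 0.133). PAM, the enzyme that amidates cholecystokinin and was singled out after its values were seen, rose from 113.8 ± 2.6 to 139.3 ± 3.6 FPKM (limma adjusted p 0.00621).

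For CLCA2, its relatives CLCA1 and CLCA4 were not analysed here. Of 6 tested chloride channel genes 0 were called under siMENA with limma. Under siMENA11a 1 of the 6, the anoctamin ANO10, fell by 0.23 (limma adjusted p 0.017). That call was lost on omitting control replicate 2 or 3 or siMENA11a replicate 1 (largest adjusted p 0.0623). Of 15 tested genes of basal and squamous epithelium, where CLCA2 is at home, 2 rose and 5 fell under siMENA (median -0.22). The desmosomal cadherin DSG3 fell from 39.4 ± 2.2 to 24.95 ± 1.14 FPKM (-0.64, limma adjusted p 0.000122). KRT17, a basal keratin, rose from 0.67 ± 0.24 to 2.77 ± 1.21 FPKM and the calcium-binding protein S100A2 from 18.5 ± 8.4 to 40.95 ± 13.93 FPKM (limma adjusted p 0.0103 and 0.0319). The call of S100A2 ended on leaving out any of control replicates 1 and 3 and siMENA replicates 1 and 2 (largest adjusted p 0.109). The list held 4 called genes without control replicate 3 or siMENA replicate 1. Under siMENA11a 2 of the 15 rose and 2 fell. The desmosomal cadherin DSC3 fell by 0.37 and S100A2 by 1.00, and LAMB3, a laminin chain, rose by 0.54 (limma adjusted p 0.00949, 0.0485 and 0.0379). Without a filter on low values or without single libraries (control replicates 1 to 3, siMENA replicate 1, siMENA11a replicates 1 and 3), 1 or 2 genes of the list were called, DSC3 in each case. S100A2 lost its call with no filter, with quantile normalization and without control replicate 2 or 3, siMENA replicate 1 or siMENA11a replicate 1 or 3 (largest adjusted p 0.143), and LAMB3 with no filter and without any one control replicate or siMENA replicate 2 or 3 (0.1).

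Target genes of p53, to which CLCA2 belongs, went both ways under siMENA, with 5 of 25 higher and 4 lower (median -0.01). ZMAT3, an RNA-binding protein, fell from 14.7 ± 0.7 to 9.16 ± 1.18 FPKM and rose to 22.0 ± 2.5 FPKM under siMENA11a (-0.63 and 0.54, limma adjusted p 0.00232 and 0.00459). TP53INP1, a stress-induced nuclear protein, fell by 0.43 under siMENA (limma adjusted p 0.00713), and BTG2, an antiproliferative factor, rose by 0.55 (limma adjusted p 0.0306), a call that needed control replicates 1 and 2 and siMENA replicates 1 and 3 (largest adjusted p 0.0981). Without siMENA replicate 1 the list held 5 called genes in place of 9. Under siMENA11a 4 rose and 2 fell. RRM2B, a ribonucleotide reductase subunit, rose by 0.24 and TP53INP1 by 0.28 (limma adjusted p 0.0133 and 0.0383). TP53INP1 lost that call when any control replicate, siMENA replicate 2 or siMENA11a replicate 1 or 3 was left out, and with no filter on low values (largest adjusted p 0.113), and the list held 2 called genes without control replicate 3 or siMENA11a replicate 1 or 3.

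FEZ1, the relative of FEZ2, was not analysed here, and SCOC, a partner of FEZ1, did not pass (59.3 ± 4.7 FPKM in the control and 53.4 ± 1.0 in the siMENA group). Of 33 tested genes of kinesin-1 and early autophagy, 2 rose and 7 fell under siMENA (median 0.03). RB1CC1, a scaffold of the ULK1 kinase complex that starts autophagy, fell from 27.3 ± 0.5 to 17.0 ± 1.2 FPKM (-0.65, limma adjusted p 0.00018). ATG16L1, which places LC3 on membranes, fell from 16.6 ± 0.4 to 11.8 ± 0.1 FPKM (-0.46, limma adjusted p 0.00168), and WIPI1, a phosphoinositide-binding autophagy protein, by 0.40 (limma adjusted p 0.0191). The call of WIPI1 needed control replicates 1 and 3 and siMENA replicates 1 and 2 (largest adjusted p 0.0693). Without control replicate 3 the list held 4 called genes and without siMENA replicate 1 it held 5. Under siMENA11a 4 rose and 3 fell. SQSTM1, an autophagy receptor, rose from 93.4 ± 8.2 to 161.7 ± 31.8 FPKM (0.77, limma adjusted p 0.00358) and ATG16L1 fell to 10.9 ± 1.0 FPKM (-0.56, limma adjusted p 0.000606), whereas RB1CC1 was at 27.6 ± 1.5 FPKM, close to the control group. MAPK8IP3, a kinesin-1 adaptor, fell by 0.31 (limma adjusted p 0.0193), a call that needed every control replicate and siMENA11a replicates 1 and 3 (largest adjusted p 0.0587). The list held 2, 3 and 4 called genes without control replicates 1, 2 and 3, 4 without siMENA11a replicate 1 and 3 without siMENA11a replicate 3.

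**Figure D4:**
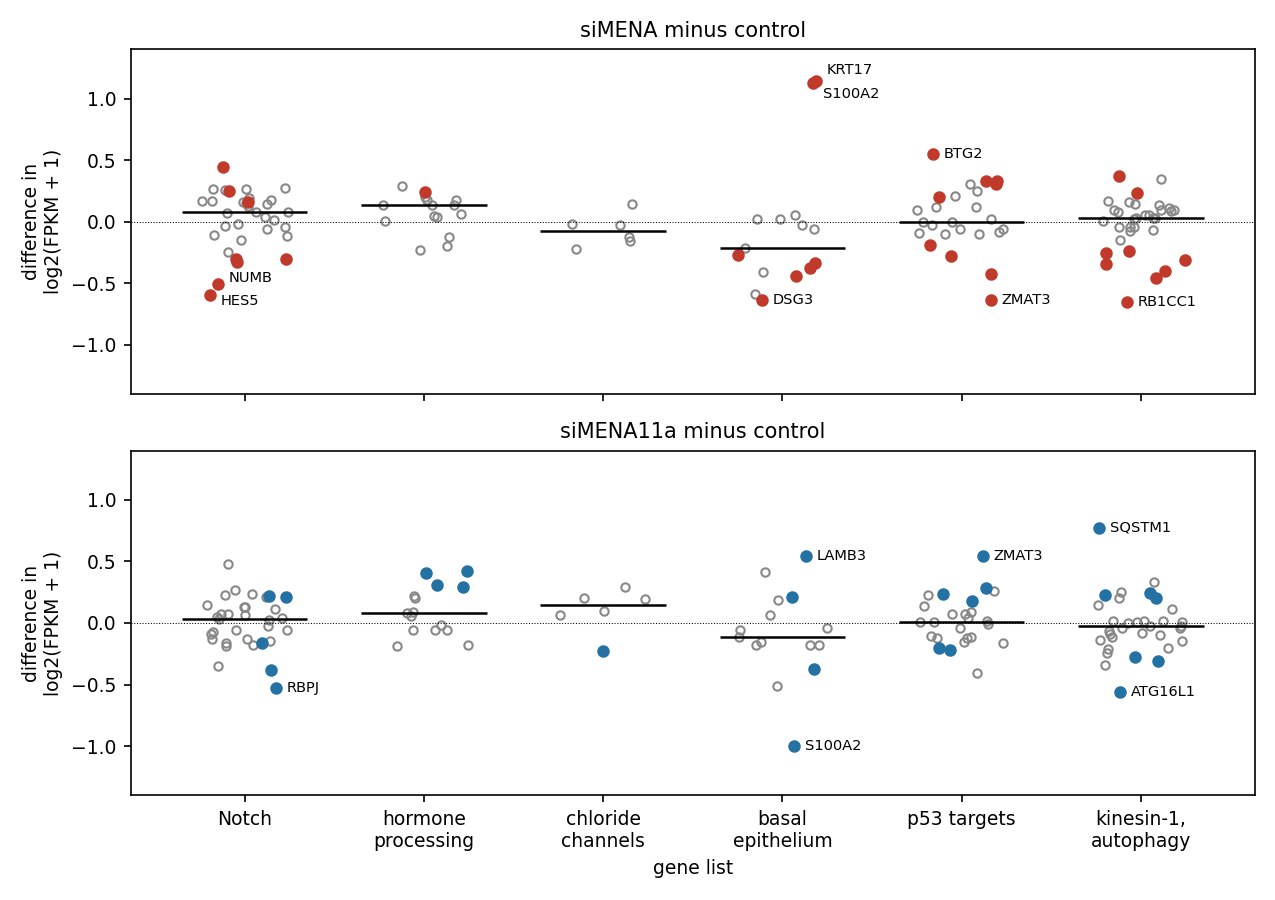
Differences in log2(FPKM + 1) for the tested genes of 6 lists, siMENA minus control above and siMENA11a minus control below. Each point is a gene, filled where the limma adjusted p was under 0.05 and named where such a difference exceeded 0.5, and black lines are list medians; calls lie on both sides of 0 in 4 of the 6 lists under siMENA.

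The labelled cell type was checked against its markers. All 6 epithelial markers were high, with a sum of 4820 to 5135 FPKM in the control, 4693 to 4893 in the siMENA and 3939 to 4425 in the siMENA11a libraries. KRT7 fell under siMENA, and CDH1, KRT8 and KRT18 fell under siMENA11a (by 0.41, 0.42, 0.35 and 0.40, limma adjusted p 0.0059, 0.00196, 0.029 and 0.0102). The call of KRT8 ended without any one of the control replicates or siMENA11a replicate 1 or 2 (largest adjusted p 0.0946). The neuroendocrine markers, of interest because CCK and DNER are known from neural and endocrine cells, summed to 3.18 to 3.81 FPKM in the control, 4.63 to 5.29 in the siMENA and 2.56 to 3.40 in the siMENA11a libraries, over the 4 of 7 genes in the table. Of the 3 tested, SYP, a synaptic vesicle protein, rose by 0.35 under siMENA and fell by 0.30 under siMENA11a (limma adjusted p 0.0132 and 0.0238), so this sum moved opposite to CCK and DNER under siMENA; its part in their values was not tested. The call of SYP ended without control replicate 3 or siMENA replicate 1 in the former and without control replicate 2 or 3 or siMENA11a replicate 3 in the latter (largest adjusted p 0.053 and 0.0812). The fibroblast (3 of 6 in the table), leukocyte (1 of 4) and endothelial (3 of 3) markers summed to at most 3.79, 7.21 and 0.491 FPKM in any library. In such bulk samples, fewer cells that make a gene and less of its RNA per cell cannot be told apart.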

How the data were processed

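The authors deposited 1 table of FPKM values for 16630 genes in 9 libraries of ribosome-depleted, stranded total RNA, with the human build hg19 per the submitters' processing notes. Aligner, quantification tool and annotation were not given in the sources used here. No read numbers are in the table, so depth is unknown. Values down to 1.2e-303 FPKM, with 344 between 0 and 1e-06, show that fragments were not counted whole.

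Of the deposited FPKM cells, 11540 were whole numbers other than 0. Those at least 100-fold above the median of the gene's decimal values, or in genes without any, were taken to have lost the decimal point and were divided by 1000 (11524 cells, among them 2 of CLCA2 and 1 of FEZ2). The 1286 genes lacking a value in any library were dropped. Testing covered the 13273 genes averaging 0.5 FPKM or more, as log2(FPKM + 1), with limma 3.58.1 in R 4.3.3: 1 fit over 9 libraries, group as the only term and a mean-variance trend. Benjamini-Hochberg adjustment ran over all genes tested, and an adjusted p under 0.05 counted as called. The fit was tested on simulated data.

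The 3′ UTRs are those of GENCODE release 29 (GRCh38), matched by symbol for 13746 genes and by an older symbol for 1004. Groups were taken from the sample labels. Replicate numbers are shared between groups: deviations correlated at 0.124, 0.378 and 0.196 for replicates 1 to 3 between control and siMENA, each over 0.1, which counted as pairing, and at 0.206, 0.425 and -0.0302 between control and siMENA11a, which did not. Some unlike numbers also passed 0.1, such as control replicate 1 with siMENA replicate 3 (0.113) and with siMENA11a replicate 3 (0.321). Most unlike pairs were negative, down to -0.425. The numbers are therefore not shown to mark matched cultures. The main fit leaves pairing by replicate number out, so the p-values and calls for siMENA are those of an unpaired fit. With the replicate number as a block, siMENA against control gave 3149 called genes in place of 2463. It gave 9 called Notch genes in place of 8.

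Genes named are the 4 genes, ENAH, direct relatives and partners, the 3 genes most alike to each, those next to the 2-fold limit and up to 3 called genes with the largest change per list. The genes and lists were chosen with earlier results of these data known. The alternatives tried were another pseudocount (0.25), no filter or 2 FPKM, median-ratio and quantile scaling, values as deposited, the replicate block, leaving out each library, and, for the words, the core or any transcript.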

Additional observations from a re-analysis of the deposited data

How the results depend on the processing

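On repaired values, the siMENA minus control difference ranged over 15 alternatives from -1.91 to -1.31 for CCK and -1.55 to -1.29 for DNER. It ranged from -1.19 to -0.97 for CLCA2 and -1.17 to -1.04 for FEZ2. The genes were picked for this fall and their groups did not overlap, so leaving out a single library could not turn the sign. Another filter, the replicate block or leaving out a siMENA11a library cannot change this difference at all. These ranges are a description and support nothing. FEZ2 stayed called higher under siMENA11a in all 15 alternatives (0.34 to 0.39, adjusted p 0.0027 to 0.0228 with limma), and the other 3 stayed uncalled (adjusted p 0.0914 to 0.46 for CCK, 0.696 to 0.918 for DNER and 0.226 to 0.772 for CLCA2). The sign of the DNER difference turned without control replicate 1 (-0.03) and without siMENA11a replicate 2 (-0.067), over a range of -0.07 to 0.10 when single libraries were left out; the call did not change. Leaving out single libraries gave 1346 to 2902 called genes for siMENA against control (main count 2463; 1555 without control replicate 1, 1446 without control replicate 3, 1346 without siMENA replicate 1, 1572 without siMENA replicate 2) and 1493 to 2483 for siMENA11a against control (main count 2583; 1493 without control replicate 3). Values as deposited gave -7.73 for CLCA2 under siMENA, 3.67 (adjusted p 0.527) for FEZ2 under siMENA11a and 4.76 for FEZ2 between the siRNA groups, with 543 and 556 called genes. Undivided cells enter those fits by construction. With the replicate number as a block, differences were the same, 3149 and 3431 genes were called and FEZ2 had an adjusted p of 0.0033; under siMENA11a the block gave 8 called Notch genes in place of 5, 13 kinesin-1 and autophagy genes in place of 7 and 7 basal genes in place of 4. Depth cannot be read from FPKM, so counting error, largest for CCK at 1.30 FPKM, is unknown.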
